A study of Mus musculus with 15 samples.

Results

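The ENG+ cells of the stage called HEI were compared with FLK1+ mesoderm in 12 of the 15 RNA-seq libraries of the study, 6 against 6. The 12 were chosen by their labels: every library sorted as FLK1+, and every HEI library sorted as ENG+. All came from differentiated mouse embryonic stem cells that carried a LacZ reporter driven by control elements of Endoglin. In the line that joined the Endoglin promoter to enhancers at −8, +7 and +9 kb, FLK1+ cells had been sorted into LacZ− and LacZ+ fractions with 3 libraries each. In the other line, whose construct held only the promoter and the −8 kb enhancer, ENG+FDG− and ENG+FDG+ fractions had been sorted, again with 3 libraries each, FDG being a substrate that turns fluorescent when beta-galactosidase, the LacZ product, cleaves it. The remaining 3 libraries are an ENG−FDG+ fraction of that second line; they entered the fit and are given only as a reference level. The labels do not spell out HEI. Because the FLK1+ cells came from one line and the HEI cells from another, stage and reporter line cannot be told apart, and "stage difference" below stands for both together. For culture days, sort gates and clones per line, the sources used here give nothing.

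FLK1, the VEGF receptor encoded by Kdr, marks mesoderm that leaves the primitive streak and can form blood, endothelium and heart. Part of the early endothelium is haemogenic: it expresses endothelial junction and receptor genes and then releases blood cells in a step that needs the transcription factor Runx1. Endoglin, encoded by Eng, is a co-receptor for TGF-beta family ligands at the surface of endothelial and early blood-forming cells. The question put to the data was which genes of the endothelial programme, and of the mesodermal programme before it, differed between the stages.

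The libraries held 9673396 to 16337785 counts. Replicates 2 and 3 of a group resembled each other more than they resembled replicate 1. The correlation of gene deviations from group means was at most −0.615 between a replicate 1 library and a replicate 2 or 3 library of another group, and at least 0.53 between replicates 2 and 3 of different groups. What set replicate 1 apart is not given in the labels, and the labels name no separate cultures, so p-values measure only the spread between these samples, which may be technical. The replicate number was therefore a block in the model. For some of the genes whose replicate sets part, stage differences are also given for replicate 1 and for replicates 2 and 3. Other named genes part without such values. Levels are CPM, that is, counts scaled to a common library size. Where 3 levels are given for a stage, they are its lowest, median and highest library of 6, and a difference is log2 of ENG+ HEI over FLK1+ with its standard error (SE).

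Eng and Kdr, the surface markers of the sorts, were higher in ENG+ HEI cells, as were the further surface markers Tek, Kit and Itga2b. Eng, which the HEI gate itself selected, read 20.5, 24.5 and 85.2 CPM in FLK1+ cells and 180, 202 and 962 CPM in ENG+ HEI cells. The stages did not overlap, and the 2 highest ENG+ HEI libraries were both replicate 1. Its difference was 3.39 ± 0.19 (SE, edgeR quasi-likelihood test, adjusted p = 4.34e-09). Kdr, which the FLK1+ gate selected, was not lower in the later cells: it read 319, 542 and 715 CPM in FLK1+ libraries and 770, 957 and 1040 CPM in ENG+ HEI libraries, a difference of 0.92 ± 0.11 (adjusted p = 6.68e-06). Tek, which encodes the angiopoietin receptor TIE2, rose most among the 5 markers, from 8.97, 26.3 and 46.8 CPM to 517, 786 and 888 CPM, or 4.83 ± 0.23 (adjusted p = 1.36e-09). No library of either stage lay inside the range of the other for these 3 genes. Kit, the stem cell factor receptor, rose by 1.30 ± 0.16 from a median of 46.3 to 135 CPM, and Itga2b, which encodes CD41, rose by 2.34 ± 0.15 from a median of 8.81 to 41.4 CPM. In the ENG−FDG+ cells the mean levels of Kit and Itga2b were 163 ± 13 and 76.1 ± 9.12 CPM (SD, n = 3).

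**Figure D1:**
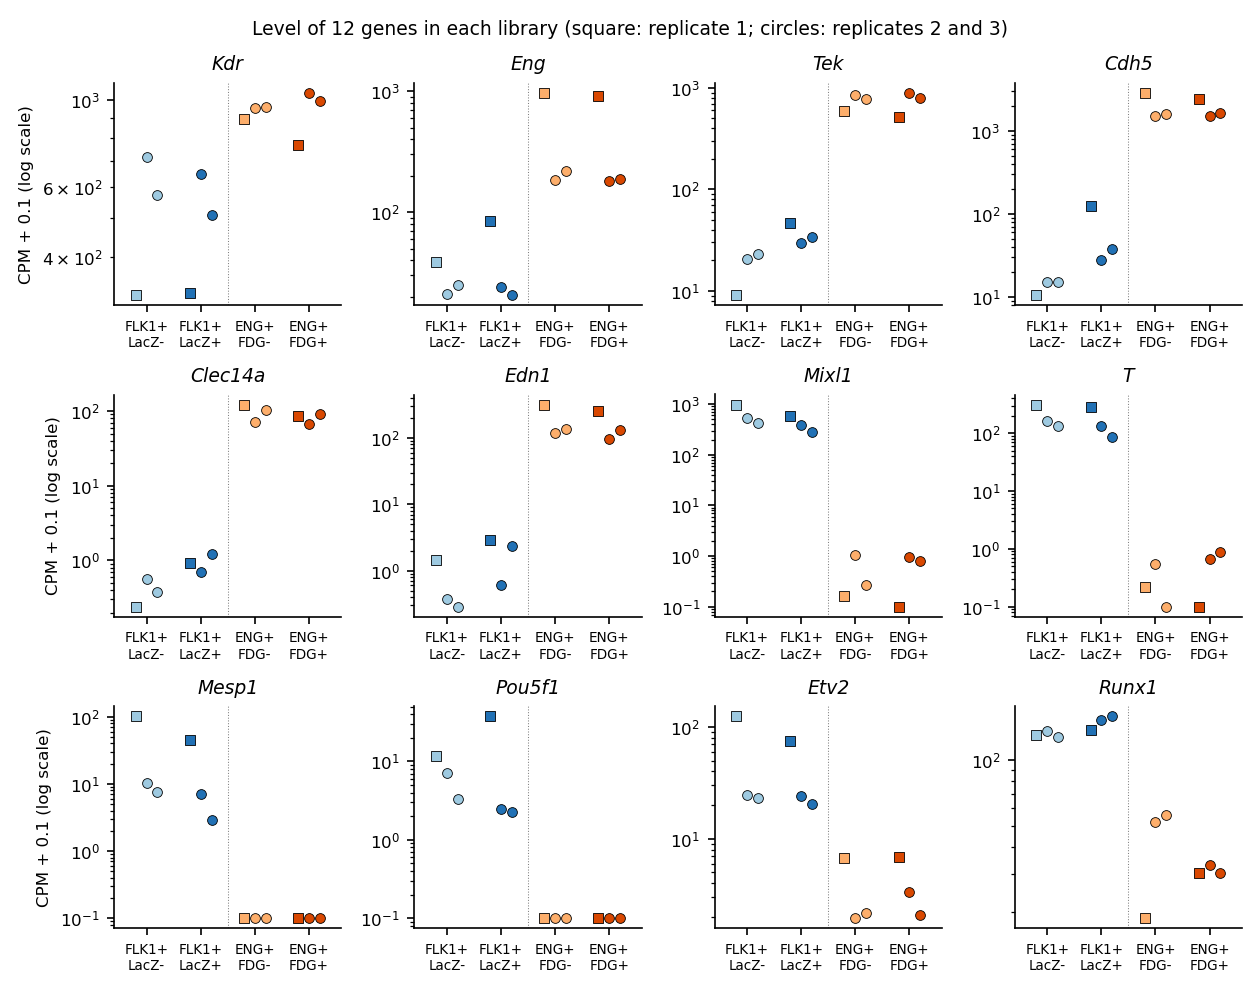
Level of 12 genes in each of the 12 libraries, as CPM + 0.1 on a log axis that differs between panels, with 1 column per sorted fraction; squares are replicate 1 and circles are replicates 2 and 3. Tek, Cdh5, Clec14a and Edn1 lie higher in all 6 ENG+ HEI libraries and Mixl1, T, Mesp1, Pou5f1, Etv2 and Runx1 lie lower in all 6 than in any FLK1+ library.

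Across the 13662 genes with enough counts to test, 8977 (65.7%) differed between the stages, 3900 (28.5%) higher and 5077 (37.2%) lower in ENG+ HEI cells. Since so many genes passed, a stricter test was set beside it that asks whether a difference exceeds 2-fold. It called 2675 genes (19.6%), 1319 (9.65%) higher and 1356 (9.93%) lower, with median differences of 2.25 and −2.88. The 6 and 6 libraries did not overlap for 3952 genes (28.9%), of which 1848 (13.5%) were higher and 2104 (15.4%) lower. The median over all genes tested was −0.13. Counts of list members called, given below, are to be read against these shares of all genes tested. In bulk RNA fewer cells of a type and less RNA per cell cannot be told apart, and this holds for every gene below.

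**Figure D2:**
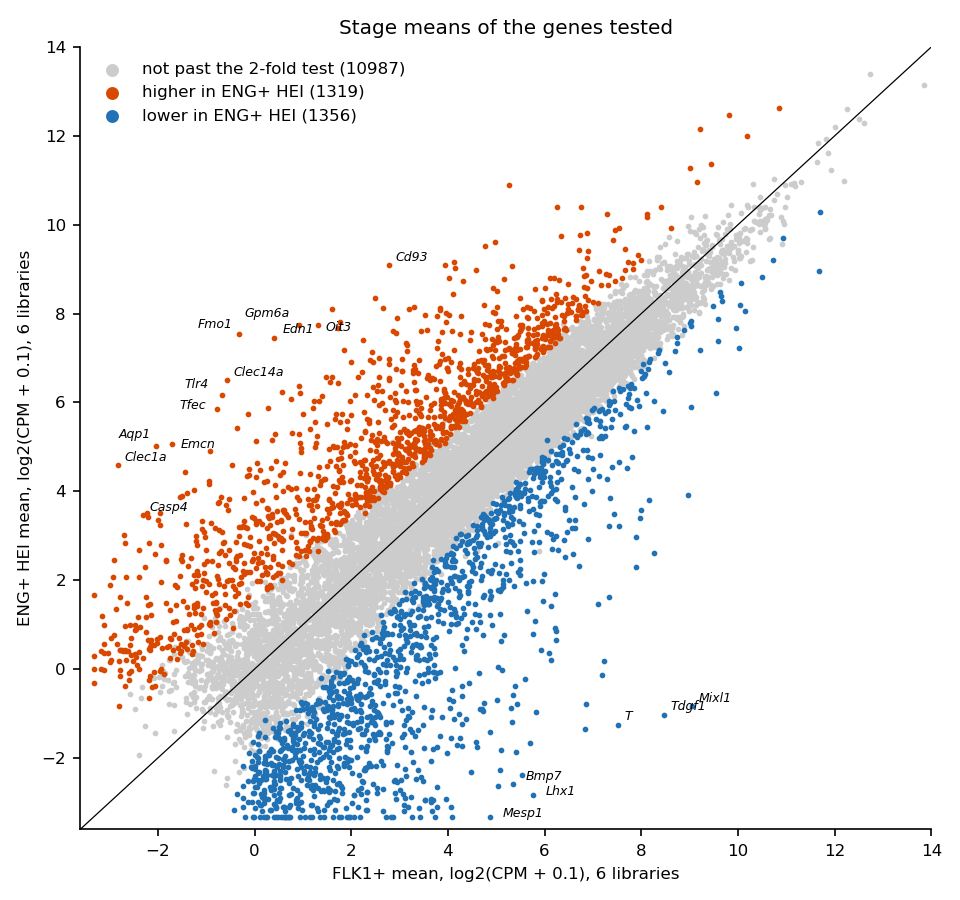
Mean level of each of the 13662 genes in the 6 FLK1+ libraries (x axis) and the 6 ENG+ HEI libraries (y axis), both as log2(CPM + 0.1); the line marks equal levels, orange marks the 1319 genes higher and blue the 1356 genes lower past the 2-fold test. The 12 largest rises by the naming rule and 6 of the 12 largest falls carry their symbols; Mesp1 and other genes with no ENG+ HEI counts lie along the bottom edge.

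The 12 largest rises among genes whose stages did not overlap were Tlr4, Clec1a, Aqp1, Fmo1, Emcn, Clec14a, Edn1, Gpm6a, Tfec, Oit3, Cd93 and Casp4. Several encode proteins of the endothelial surface: Emcn encodes the sialomucin endomucin, while Clec14a, Cd93 and Clec1a encode C-type lectin domain proteins. Clec14a read 0.14, 0.531 and 1.13 CPM in FLK1+ libraries and 68, 88.9 and 122 CPM in ENG+ HEI libraries, a difference of 7.52 ± 0.25 (adjusted p = 2.14e-11). Emcn went from 0, 0.0701 and 0.894 CPM to 24.4, 33.3 and 45.3 CPM, or 7.65 ± 0.42 (adjusted p = 2.12e-09). Cd93 went from 1.89, 5.07 and 15.4 CPM to 335, 499 and 902 CPM, or 6.64 ± 0.25 (adjusted p = 1.92e-10). All 6 ENG+ HEI libraries lay far above the highest FLK1+ library for these genes. Only 3 Clec1a reads were counted over all FLK1+ libraries against 1808 in ENG+ HEI libraries, a 570-fold excess with a 95% exact counting interval of 195 to 2770. Tlr4, the receptor for bacterial lipopolysaccharide, had a median of 0.25 CPM in FLK1+ and 83.2 CPM in ENG+ HEI cells, and Aqp1, a water channel, medians of 0.0783 and 20.9 CPM. Fmo1, a flavin-containing monooxygenase, had the smallest SE of the 12, at 8.27 ± 0.15, with 158 to 209 CPM in ENG+ HEI libraries and at most 1.15 CPM in FLK1+ libraries.

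Endothelial surface and junction genes rose nearly as a set. Of the 30 listed, all were tested; 28 rose, all 28 past the 2-fold test, 1 fell and 1 did not pass, and the median difference was 4.03. Cdh5, which encodes VE-cadherin, the adhesion molecule of endothelial junctions, read 10.4, 21.4 and 123 CPM in FLK1+ libraries and 1500, 1590 and 2840 CPM in ENG+ HEI libraries, a difference of 6.05 ± 0.30 (adjusted p = 2.70e-09). The highest FLK1+ value of Cdh5 was LacZ+ replicate 1, and the 3 LacZ− libraries read 10.4, 14.9 and 14.9 CPM, all below the 3 LacZ+ libraries at 27.8, 37.7 and 123 CPM. Pecam1, the platelet and endothelial adhesion molecule, went from a median of 11.5 to 505 CPM (5.35 ± 0.23). Cd34, another sialomucin, went from 2.4 to 155 CPM (6.17 ± 0.19), and Eltd1, an adhesion G protein-coupled receptor also called Adgrl4, from 3.07 to 317 CPM (6.42 ± 0.25). The member that fell was Podxl, encoding podocalyxin, which is also made by epithelium and early progenitors: it read 354, 423 and 583 CPM in FLK1+ and 172, 197 and 349 CPM in ENG+ HEI libraries (−0.92 ± 0.18, adjusted p = 0.000574). In replicate 1 alone the difference of Podxl was −0.13. Jam2, a junctional adhesion molecule, had medians of 3.61 and 2.94 CPM (adjusted p = 0.516). The summed level of the 30 genes was 539 to 1140 CPM in FLK1+ libraries, 5160 to 10600 CPM in ENG+ HEI libraries and 3060 to 4200 CPM in ENG−FDG+ libraries.

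Promoters of these genes are shown because the members moved together and because ETS factors, which bind GGAA cores, are the textbook regulators of endothelial genes. The windows run from 250 bases before to 50 after the annotated start and come from RefSeq (build GRCm38.p6). The letters CNGGAAG were searched on both strands. Windows were found for 14 of the 30 genes, some with several starts; 11 of these 18 windows (61.1%) held a match, against 39.3% of windows of all genes tested and 31.9% of all windows in the table. The share was 32.6% among windows of all genes higher past the 2-fold test and 30.1% among those lower. It was 35% for the endothelial transcription factors listed and 30.8% for the receptor list, so the larger share stood with the surface genes among these 3 lists, and it was not tested. Capitals mark the matches on either strand in windows of 4 genes that rose, Tie1 being from the receptor list:
Emcn, chr3:137340828-137341127, plus strand: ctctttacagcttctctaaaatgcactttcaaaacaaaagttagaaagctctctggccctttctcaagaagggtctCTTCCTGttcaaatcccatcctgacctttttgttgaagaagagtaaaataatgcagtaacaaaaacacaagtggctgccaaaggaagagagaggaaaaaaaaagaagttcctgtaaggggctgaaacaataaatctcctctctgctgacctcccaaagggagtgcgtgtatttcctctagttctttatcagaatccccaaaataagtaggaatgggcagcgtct
Clec14a, chr12:58269209-58269508, minus strand: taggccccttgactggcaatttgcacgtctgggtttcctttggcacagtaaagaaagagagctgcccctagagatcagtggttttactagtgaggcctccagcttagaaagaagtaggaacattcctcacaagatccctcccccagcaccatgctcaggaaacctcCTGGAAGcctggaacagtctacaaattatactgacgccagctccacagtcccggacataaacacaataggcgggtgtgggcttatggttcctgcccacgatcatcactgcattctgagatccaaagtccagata
Robo4, chr9:37401722-37402021, plus strand: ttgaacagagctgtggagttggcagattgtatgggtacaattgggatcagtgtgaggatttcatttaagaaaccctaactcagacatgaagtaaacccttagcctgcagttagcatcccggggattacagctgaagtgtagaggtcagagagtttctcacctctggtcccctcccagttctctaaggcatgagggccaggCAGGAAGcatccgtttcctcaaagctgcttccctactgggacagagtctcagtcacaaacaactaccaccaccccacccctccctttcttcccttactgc
Tie1, chr4:118489800-118490099, minus strand: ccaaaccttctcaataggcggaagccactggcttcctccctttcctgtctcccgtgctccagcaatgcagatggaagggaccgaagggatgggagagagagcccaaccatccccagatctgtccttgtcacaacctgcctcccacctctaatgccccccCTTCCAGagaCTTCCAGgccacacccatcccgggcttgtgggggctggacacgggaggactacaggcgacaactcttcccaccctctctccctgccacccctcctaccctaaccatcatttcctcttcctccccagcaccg
The Tie1 window has 2 matches, which begin 91 and 81 bases before the start; in the windows of Emcn, Clec14a and Robo4 the single matches begin 174, 84 and 50 bases before it. Robo4, an endothelial guidance receptor, read 0.371, 1.88 and 6 CPM in FLK1+ libraries and 22.1, 30.4 and 157 CPM in ENG+ HEI libraries (4.79 ± 0.27). These matches describe the letters of the windows and show no binding.

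Among receptor tyrosine kinases, their VEGF and angiopoietin ligands and the neuropilins, 10 of 13 genes rose and 2 fell, 5 rose past the 2-fold test, and the median difference was 1.16. The TIE receptors stood apart from the VEGF receptors by size. Tie1, the partner of TIE2, read 2.49, 3.54 and 28.5 CPM in FLK1+ and 151, 177 and 396 CPM in ENG+ HEI libraries, a difference of 5.43 ± 0.32 (adjusted p = 1.03e-08). Flt1, the decoy VEGF receptor, rose by 1.86 ± 0.17 from a median of 43.8 to 141 CPM without overlap. Flt4, the VEGF-C receptor, rose by 1.36 ± 0.22 from 59 to 135 CPM, but its highest FLK1+ library (121 CPM) lay above its lowest ENG+ HEI library (108 CPM). Of the ligands, Vegfa rose by 1.57 ± 0.13 from 61.7 to 191 CPM, and Pgf fell by 1.79 at under 3 CPM in every library (adjusted p = 0.0224). Vegfb fell by 0.47 (SE 0.13) with overlapping libraries, a call lost without the block and in replicates 2 and 3 alone. The call of Pgf was lost without the block and when 1 of 5 libraries was left out, namely LacZ− or LacZ+ replicate 3, ENG+FDG− replicate 1 or 3, or ENG+FDG+ replicate 3. Nrp1, a VEGF co-receptor, rose by 1.20 ± 0.10 with overlapping libraries.

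Transcription factors of endothelium were mostly higher in ENG+ HEI cells, with Etv2 and Lmo2 lower. Of 20 tested, 15 rose (14 past the 2-fold test), 2 fell and 3 did not pass, with a median of 2.13. Klf2, the flow-responsive Krüppel-like factor, rose most, from 0.923, 1.62 and 17.4 CPM to 39.6, 58.3 and 425 CPM (5.35 ± 0.16, adjusted p = 9.82e-12). The highest value of each stage was a replicate 1 library. The ETS genes Erg and Ets1 rose by 3.92 ± 0.22 and 2.72 ± 0.12; Ets1 read 53.4, 116 and 125 CPM in FLK1+ and 505, 743 and 788 CPM in ENG+ HEI libraries. SOXF genes, which specify arterial and haemogenic endothelium, rose as well: Sox17 by 3.81 ± 0.12 from a median of 5.36 to 64.9 CPM, and Sox18 by 3.28 ± 0.30 with overlap through 1 FLK1+ library, LacZ+ replicate 1, at 76.8 CPM. Sox18 differed by 2.52 in replicate 1 and by 4.04 in replicates 2 and 3. Mef2c rose by 4.08 ± 0.22 and Bcl6b by 3.40 ± 0.22, both without overlap. Against these, Etv2, the ETS factor that starts the blood and endothelial programme in mesoderm, read 20.2, 24.5 and 125 CPM in FLK1+ libraries and 1.85, 2.66 and 6.76 CPM in ENG+ HEI libraries. The stages of Etv2 did not overlap, and it fell by 3.55 (SE 0.19, adjusted p = 1.32e-09). Lmo2, an adaptor of the blood and endothelial complex, fell by 0.67 (SE 0.11) with overlapping libraries, a call that was lost without the block. Its partners Tal1 and Gata2 did not pass, with differences of −0.12 ± 0.18 and −0.18 ± 0.16.

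Primitive streak and nascent mesoderm genes gave the largest falls. None of the 24 tested rose and 23 fell, all 23 past the 2-fold test and without overlap of the libraries; Wnt3a of the 25 listed had too few counts. The median difference was −6.69, or −6.04 with the 4 genes that had no ENG+ HEI count set at their lower bound. Mixl1, a homeobox gene of streak cells, read 280, 476 and 980 CPM in FLK1+ libraries and 0, 0.434 and 0.969 CPM in ENG+ HEI libraries (−10.31 ± 0.54, adjusted p = 3.64e-09). Brachyury, given as T, read 85.2, 146 and 311 CPM against 0, 0.281 and 0.795 CPM (−9.37 ± 0.57). Tdgf1, the Nodal co-receptor also called Cripto, read 158, 324 and 569 CPM against 0, 0.395 and 0.894 CPM (−10.02 ± 0.55). All 3 genes were under 1 CPM in every ENG+ HEI library. Mesp1, a basic helix-loop-helix factor of cardiovascular mesoderm, had 2452 reads over the FLK1+ libraries and 0 over the ENG+ HEI libraries; against the 3 counts that a count of 0 allows over the 6 libraries it was at least 864-fold lower. By the same bound Lefty2, a Nodal inhibitor, was at least 486-fold lower and Fgf8, a growth factor, at least 407-fold lower. For Lhx1, a LIM homeobox gene, 4357 reads stood against 3, a 1530-fold difference (95% exact counting interval 525 to 7440). These bounds and intervals cover counting error only. Replicate 1 libraries carried several of them: without LacZ− replicate 1 the bound for Mesp1 was 437-fold and the value for Lhx1 1010-fold, and without LacZ+ replicate 1 the bound for Fgf8 was 263-fold. Eomes, a T-box factor, kept a median of 4.39 CPM in ENG+ HEI cells from 210 CPM (−5.55 ± 0.27). Rspo3, a Wnt agonist, was the member that did not pass, with medians of 229 and 174 CPM (adjusted p = 0.296). The FLK1+ level of Mesp1 ranged from 2.77 to 102 CPM and that of Fgf8 from 0.8 to 36.8 CPM, each with its 2 highest values in replicate 1, while the ENG+ HEI level was 0 throughout.

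The same windows were searched for AGGTGTG, the core that T-box factors such as Brachyury and Eomes bind. Of 24 windows found for 20 of the 25 listed streak genes, 9 (37.5%) held it on either strand, against 4.53% of windows of all genes tested and 5.84% of all windows. The share was 6.58% among windows of all genes lower past the 2-fold test and 0% among the 18 windows of endothelial surface genes. It was 0% for the receptor list and 10% among the 20 windows of endothelial transcription factors. Another motif, CTTTGAA of TCF/LEF factors, matched 16.7% of the streak windows, against 3.61% of windows of all genes tested. The 9 windows with AGGTGTG include 2 starts of Sp8. These shares were not tested, and 6 motifs were searched in all. Windows of 3 members are shown with the AGGTGTG match in capitals:
Mesp1, chr7:79793541-79793840, minus strand: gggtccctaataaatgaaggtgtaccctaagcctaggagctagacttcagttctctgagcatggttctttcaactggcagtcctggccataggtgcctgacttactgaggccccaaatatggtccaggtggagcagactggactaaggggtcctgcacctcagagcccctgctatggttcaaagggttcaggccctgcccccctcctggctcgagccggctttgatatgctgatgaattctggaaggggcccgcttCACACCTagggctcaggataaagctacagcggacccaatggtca
Evx1, chr6:52313248-52313547, plus strand: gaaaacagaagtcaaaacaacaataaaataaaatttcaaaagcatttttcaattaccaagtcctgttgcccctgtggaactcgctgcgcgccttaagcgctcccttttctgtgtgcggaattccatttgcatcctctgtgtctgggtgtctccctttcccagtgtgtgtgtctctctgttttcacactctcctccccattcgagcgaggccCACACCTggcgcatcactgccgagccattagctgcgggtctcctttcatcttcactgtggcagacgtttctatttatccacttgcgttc
Nodal, chr10:61417722-61418021, plus strand: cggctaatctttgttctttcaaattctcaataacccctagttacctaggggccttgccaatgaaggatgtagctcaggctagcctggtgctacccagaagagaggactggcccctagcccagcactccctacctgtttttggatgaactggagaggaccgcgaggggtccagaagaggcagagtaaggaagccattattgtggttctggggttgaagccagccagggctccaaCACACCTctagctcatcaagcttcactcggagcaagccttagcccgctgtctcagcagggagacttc
Here the match lies on the strand opposite to the gene, and it begins 39 bases before the start in Evx1, 17 before it in Nodal and 6 after it in Mesp1. Evx1, a homeobox gene of the posterior streak, read 31.8, 46.6 and 92.4 CPM in FLK1+ and 0.0607, 0.184 and 0.397 CPM in ENG+ HEI libraries (−8.12 ± 0.33). Nodal, the ligand that sets up the streak, read 1.90, 3.34 and 26.8 CPM against 0.182, 0.292 and 0.441 CPM (−4.49 ± 0.59).

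Pluripotency and epiblast genes were lower too. Of 17 tested, 14 fell (14 past the 2-fold test, none of them with overlapping libraries), 1 rose and 2 did not pass, with a median of −5.65. Pou5f1, which encodes OCT4, read 2.16, 5.13 and 37.7 CPM in FLK1+ libraries and 0 in all 6 ENG+ HEI libraries, at least 322-fold lower. Sox2 was likewise at 0 in every ENG+ HEI library and at least 115-fold lower. Without LacZ+ replicate 1 these bounds were 146-fold for Pou5f1 and 42.0-fold for Sox2. For Nanog 1158 reads stood against 2 (612-fold, interval 169 to 5060), and for Otx2, an epiblast homeobox gene, 840 against 1 (887-fold, interval 159 to 35100). Lin28a, an RNA-binding protein that blocks let-7 processing, fell less, by 1.22 (SE 0.09), from a median of 566 to 264 CPM. Its paralogue Lin28b was the member that rose, by 0.43 ± 0.09 with overlapping libraries, and it was not called without the block.

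Other genes among the 12 largest falls were Bmp7, Ndufa4l2 and Gjb2. Bmp7, a BMP ligand, read 32.4, 42.5 and 45.7 CPM in FLK1+ libraries and at most 0.298 CPM in ENG+ HEI libraries (−10.15 ± 0.53, adjusted p = 1.29e-08). Ndufa4l2, a hypoxia-induced mitochondrial protein, had 1028 reads against 1, and Gjb2, which encodes connexin 26, had 938 against 1.

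**Figure D3:**
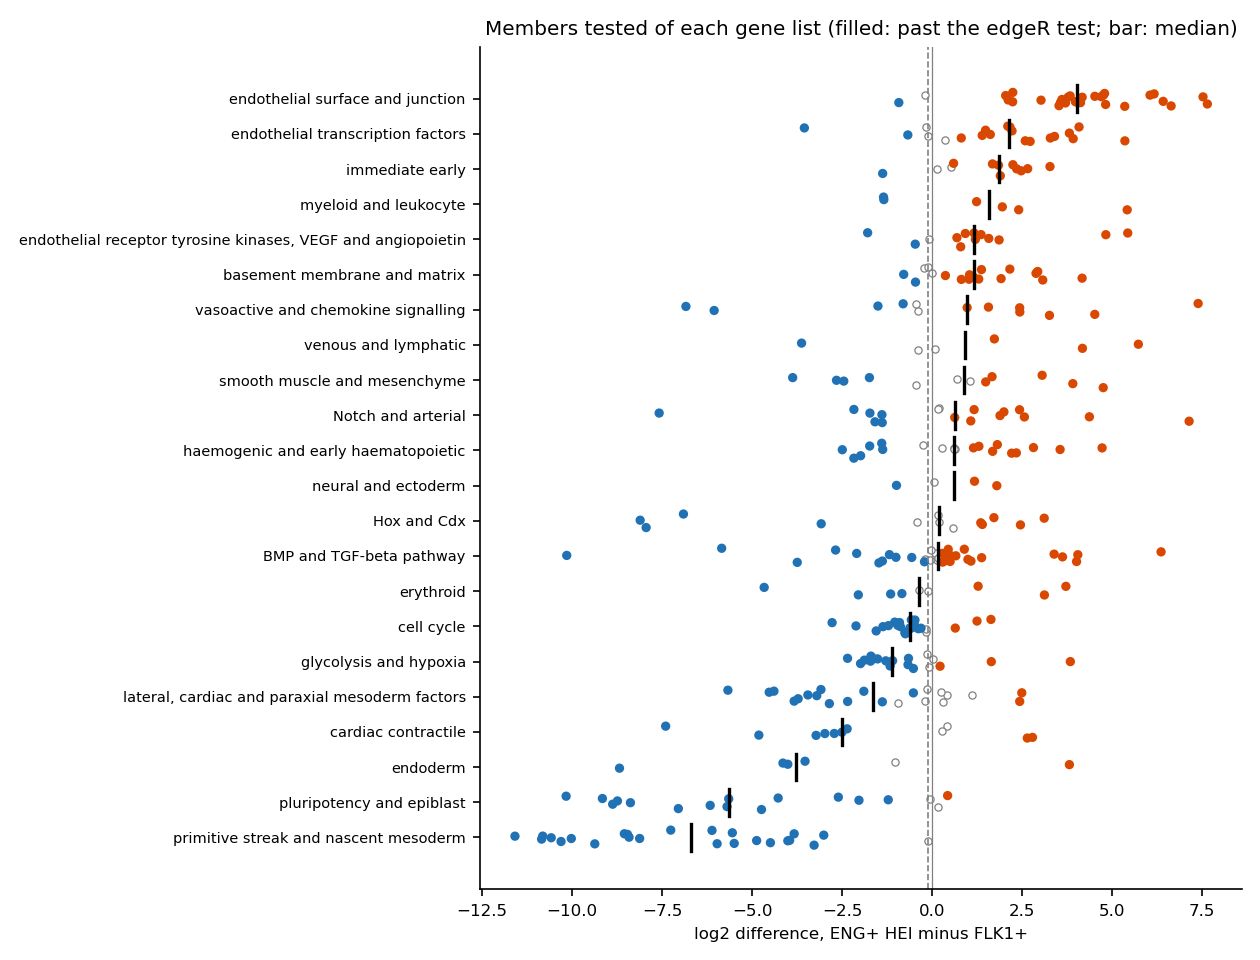
Log2 difference, ENG+ HEI minus FLK1+, of each tested member of the 22 gene lists, ordered by list median (black bar); filled points passed the edgeR test, orange higher and blue lower, open points did not, and the dashed line is the median of all genes tested (−0.13). Endothelial surface genes lie at the top with a median of 4.03 and streak genes at the bottom with a median of −6.69, while the Notch, haemogenic and BMP lists spread to both sides.

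Notch and arterial genes split by member. Of 17 tested (19 listed), 9 rose and 6 fell, 6 and 5 of them past the 2-fold test, and the median was 0.63. The shares over all genes tested were 28.5% and 37.2%, and 9.65% and 9.93% past the 2-fold test. Gja5, which encodes the arterial connexin 40, was at 0 in most FLK1+ libraries (highest 0.447 CPM) and read 0.667, 2.12 and 20.4 CPM in ENG+ HEI libraries (7.14 ± 0.68, adjusted p = 1.69e-06). Its ENG+ HEI level was highest in replicate 1, at 20.4 and 11.8 CPM, and at most 2.38 CPM in replicates 2 and 3. All LacZ− libraries were at 0, so the size of its difference is uncertain. The 4 receptor genes went both ways. Notch1 and Notch4 rose by 1.89 ± 0.11 and 2.43 ± 0.20, and the ligands Dll4 and Jag2 by 2.56 ± 0.52 and 1.99 ± 0.30; for these receptors and ligands the highest FLK1+ library lay above the lowest ENG+ HEI library. Notch2 and Notch3 fell past the 2-fold test without overlap, by 1.39 (SE 0.13) and 1.39 (SE 0.20). For Notch3 the 2-fold call was near the threshold (adjusted p = 0.0474). Its difference was −2.14 in replicate 1 and −0.94 in replicates 2 and 3, a gap called in the test of the replicate sets given below. Also lower was Dll3, a Notch ligand of presomitic mesoderm, which went from 758 reads to 3 (267-fold, interval 91.0 to 1300, or 176-fold without LacZ− replicate 1). The Notch targets went both ways. Hey1 fell by 1.59 (SE 0.17) from a median of 61.5 to 17.6 CPM, while Hey2 rose by 1.17 ± 0.28 with overlapping libraries. Hes1 fell by 2.17 (SE 0.52), but its difference in replicate 1 was −0.065 and its call was lost without the block. Of 6 genes of venous and lymphatic vessels, Nr2f2, the venous nuclear receptor COUP-TFII, rose by 4.18 ± 0.33 from a median of 1.94 to 39.8 CPM, Lyve1 by 5.73 ± 0.36 from 0.288 to 13.6 CPM and Ephb4, the receptor of the arterial ligand ephrin B2, by 1.73 ± 0.09. None of these 3 had overlapping stages. Pdpn fell by 3.63 (SE 0.55), and Aplnr, the apelin receptor, was at medians of 177 and 185 CPM (adjusted p = 0.642). Arterial and venous genes thus both stood among the rises of the same sorted cells.

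The BMP and TGF-beta pathway moved in both directions: of 33 genes 16 rose and 11 fell, 6 each past the 2-fold test, and the median was 0.16. Eng, which the HEI gate itself selected, is counted among the rises in both tests. For all genes tested the shares were 28.5% and 37.2%, and 9.65% and 9.93% past the 2-fold test. The receptor genes were split. Acvrl1, which encodes ALK1, the type I receptor that pairs with Endoglin, read 1.48, 2.55 and 8.81 CPM in FLK1+ and 29.2, 37.2 and 98.5 CPM in ENG+ HEI libraries (4.05 ± 0.17, adjusted p = 1.42e-10). Tgfbr2, the type II TGF-beta receptor, rose by 3.62 ± 0.20 from a median of 8.54 to 109 CPM, and the co-receptor Tgfbr3 by 1.38 ± 0.16. Bmpr2 rose by 1.08 ± 0.10 with overlapping libraries. The receptor genes Acvr2b and Bmpr1b fell past the 2-fold test without overlap, by 2.10 (SE 0.18) and 3.75 (SE 0.63). Acvr2a fell by 0.57 (SE 0.14), a call lost without the block, and Bmpr1a did not pass (adjusted p = 0.425). Among ligands, Bmp6 rose by 4.01 ± 0.17 from a median of 8.65 to 114 CPM, while Bmp4, a mesoderm inducer, fell by 2.68 (SE 0.21) from 257 to 46.5 CPM and Bmp7 was close to 0. Without the block 10 of the 33 were called higher and 9 lower.

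Haemogenic and early blood genes divided, and Runx1 was on the lower side. It read 128, 137 and 159 CPM in FLK1+ libraries and 18.7, 31.7 and 55.9 CPM in ENG+ HEI libraries, fell by 1.99 (SE 0.17, adjusted p = 2.57e-07) and had a mean of 273 ± 35.2 CPM (SD, n = 3) in the ENG−FDG+ cells. The 6 and 6 libraries did not overlap. Of the 20 genes tested 9 rose and 6 fell, 8 and 4 past the 2-fold test, and the median was 0.62. Among all genes tested 65.7% were called, 28.5% higher and 37.2% lower, so the count called in this list is no result by itself. The rises were led by Mecom, which encodes the stem cell factor EVI1, from 0.841, 5.24 and 9.45 CPM to 95.2, 131 and 137 CPM (4.72 ± 0.24) and by Meis1, a homeobox gene, from a median of 3.06 to 30.8 CPM (3.56 ± 0.19). Besides Runx1 the falls were Ikzf1 (median 38.4 to 8.46 CPM), Myb (19.3 to 10.4 CPM), Spi1 (1.37 to 0.435 CPM), Spn and Myc. Myc fell by 1.73 (SE 0.18) from 193 to 47.5 CPM, and the calls of Myb and Spi1, whose libraries overlapped, were lost without the block. Ptprc, the pan-leukocyte gene for CD45, had too few reads to test, with at most 0.0639 CPM in FLK1+ and 0.173 CPM in ENG+ HEI libraries.

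Markers of red and myeloid cells divided. Of 9 erythroid genes tested (13 listed) 3 rose, all of them globins, and 4 fell (Gata1, Alas2, Tfrc and Slc25a37). Over all genes tested 28.5% rose and 37.2% fell, so these counts are no result by themselves. Gata1, the erythroid factor, fell by 4.66 (SE 0.53) from a median of 2.22 to 0.0954 CPM, and Tfrc, the transferrin receptor, fell by 2.05 (SE 0.08) from a median of 743 to 180 CPM, its lowest FLK1+ library (211 CPM) lying just below its highest ENG+ HEI library (213 CPM). The embryonic globins Hba-x and Hbb-y rose by 3.72 ± 0.39 and 3.12 ± 0.39, but their medians in ENG+ HEI cells were 1.57 and 1.39 CPM, Hba-x read 43.9 and 24.8 CPM in the 2 replicate 1 libraries, and neither call, nor that of the third globin gene, Hbb-bh1, held without the block; near-identical globin copies may also share reads. Of 6 myeloid genes tested Mpo, Laptm5, Mrc1 and Lyz2 rose and Cd68 and Coro1a fell, both with overlapping libraries and both lost without the block. Mrc1, the mannose receptor, rose by 5.42 ± 0.30 to a median of 79.2 CPM, whereas the other myeloid genes stayed under 40 CPM in every ENG+ HEI library, and Csf1r, Fcgr3, Tyrobp and Fcer1g had too few reads to test. The summed level of the 13 erythroid genes was 271 to 957 CPM in FLK1+ and 131 to 243 CPM in ENG+ HEI libraries, and that of the 10 myeloid genes was 21.1 to 65.8 CPM in FLK1+ and 108 to 154 CPM in ENG+ HEI libraries. The part that blood cells among the sorted cells had in any difference was not tested.

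Genes of lateral, cardiac and paraxial mesoderm were mostly lower. Of 22 tested 13 fell and 2 rose, 11 and 2 past the 2-fold test, with a median of −1.64. Among all genes tested 37.2% fell and 28.5% rose, 9.93% and 9.65% past the 2-fold test. Msx2, a homeobox target of BMP signals, read 157, 166 and 295 CPM in FLK1+ and 6.49, 8.42 and 13.7 CPM in ENG+ HEI libraries (−4.39 ± 0.27, adjusted p = 2.02e-08). Hand1 fell by 3.45 (SE 0.68) from a median of 532 to 64 CPM, while its relative Hand2 rose by 2.43 ± 0.13 from 7.59 to 47.2 CPM, both without overlap. Snai1, the zinc finger factor of epithelial-mesenchymal transition, fell by 3.72 (SE 0.44). Tbx20, a T-box gene of the heart, did not pass (medians 435 and 286 CPM, adjusted p = 0.682), with a difference of 1.19 in replicate 1 and −0.52 in replicates 2 and 3. Nkx2-5 rose at under 4 CPM in every library and was not called without the block.

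Markers of cell types other than endothelium did not move as 1 set. Cardiac contractile and endodermal genes were mostly lower in the ENG+ HEI cells, with medians of −2.50 and −3.77. Smooth muscle and neural genes went both ways, with medians of 0.88 and 0.62. Of 11 cardiac contractile genes 7 fell and 2 rose; Myl7, an atrial myosin light chain, went from a median of 10.2 to 0.093 CPM, whereas Tnnt2 rose by 2.64 ± 0.33 to 17.3 CPM. Their summed level was 57.3 to 84.6 CPM in FLK1+ and 24.2 to 60.5 CPM in ENG+ HEI libraries. Of 12 smooth muscle and mesenchymal genes tested 5 rose (Acta2, Tagln, Col1a2, Col3a1 and Postn) and 4 fell (Cnn1, Pdgfrb, Col1a1 and Des). Among all genes tested 28.5% rose and 37.2% fell. Acta2, which encodes smooth muscle actin, read 6.18, 10.6 and 22.4 CPM against 54.9, 159 and 410 CPM (3.91 ± 0.42), while Col1a1 and Pdgfrb fell by 3.87 (SE 0.70) and 2.66 (SE 0.47). In the ENG−FDG+ libraries the mean of Acta2 was 1430 CPM with an SD of 1890 CPM. The summed level of the 14 mesenchymal genes was 138 to 252 CPM in FLK1+ and 125 to 604 CPM in ENG+ HEI libraries. Of 6 endodermal and epithelial genes tested 4 fell, with Krt8 from a median of 109 to 5.99 CPM, and Sox17, which endothelium shares, was the one that rose; the summed level of the 12 listed was 122 to 402 CPM in FLK1+ and 72.2 to 137 CPM in ENG+ HEI libraries. Nes, the intermediate filament nestin of neural and endothelial cells, rose by 1.80 ± 0.10 from 58.8 to 213 CPM, and of the 10 neural and ectodermal genes 6 had too few reads to test. Their summed level, mostly Nes, was 62.9 to 92.4 CPM in FLK1+ and 199 to 249 CPM in ENG+ HEI libraries. Whether other cell types in the sorts took part in the differences was not tested.

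Basement membrane genes rose. Of 19 matrix and integrin genes 14 rose and 2 fell, 8 and 0 past the 2-fold test, with a median of 1.15. The collagen IV chains Col4a1 and Col4a2, which form the scaffold of the vessel wall's basement membrane, rose by 2.92 ± 0.08 and 2.89 ± 0.09; Col4a1 read 112, 130 and 260 CPM in FLK1+ and 773, 912 and 2070 CPM in ENG+ HEI libraries. Fbn1, which encodes fibrillin 1, rose by 4.17 ± 0.16 from a median of 76.8 to 1250 CPM and Nid1, nidogen, by 3.07 ± 0.20 from 110 to 876 CPM, both without overlap. Lama1, the laminin chain of early embryonic membranes, fell by 0.79 (SE 0.30, adjusted p = 0.0309) and Nid2 fell as well. Neither gene was called lower without the block. The call of Lama1 was lost without the block and when 1 of 7 libraries was left out, namely LacZ− or LacZ+ replicate 2 or 3, ENG+FDG− replicate 1, or ENG+FDG+ replicate 1 or 3. Fn1, fibronectin, had medians of 5640 and 5320 CPM and did not pass (adjusted p = 0.217).

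Vasoactive and chemokine genes were split. Edn1, which encodes the vasoconstrictor endothelin 1, read 0.185, 0.916 and 2.75 CPM in FLK1+ and 97.1, 132 and 319 CPM in ENG+ HEI libraries (7.39 ± 0.19, adjusted p = 4.01e-12). The converting enzyme gene Ece1 rose by 2.43 ± 0.11 and the receptor gene Ednrb by 3.26 ± 0.30, while the other receptor gene, Ednra, fell by 0.81 (SE 0.22) with overlapping libraries. Calcrl, the receptor for adrenomedullin, rose by 4.52 ± 0.22 from a median of 29.7 to 1000 CPM; its lowest ENG+ HEI value was 252 CPM. Cxcr4 and Ackr3, the receptors of the chemokine CXCL12, went the other way. Cxcr4 read 25.4, 37.4 and 61.2 CPM in FLK1+ and 0.0866, 0.342 and 0.585 CPM in ENG+ HEI libraries (−6.84 ± 0.27, adjusted p = 1.08e-10), and Ackr3 fell by 6.05 (SE 0.34) from a median of 31.1 to 0.653 CPM. Of the 13 vasoactive and chemokine genes 7 rose and 4 fell (Ednra, Cxcr4, Cxcl12 and Ackr3), 6 and 2 past the 2-fold test. The shares over all genes tested were 28.5% and 37.2%, and 9.65% and 9.93% past the 2-fold test. Without the block 6 of the 13 were called higher and 2 lower.

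Cell cycle genes were lower by small amounts. Of 23 tested 18 fell and 3 rose (Ccnd3, Cdkn1a and Cdkn1c), 4 and 1 past the 2-fold test, and the median was −0.62. Of all genes tested 37.2% fell and 28.5% rose, 9.93% and 9.65% past the 2-fold test. Among G1 cyclin genes, Ccnd2 fell by 2.78 (SE 0.30) from a median of 194 to 21.7 CPM, Ccne1 by 2.11 (SE 0.26) and Ccnd1 by 1.55 (SE 0.22), each without overlap. Cdkn1a, which encodes the inhibitor p21, rose by 1.63 ± 0.17 from 57.2 to 212 CPM with overlapping libraries. Mitotic genes such as Ccnb1 (−1.04 ± 0.15) and Aurka (−1.21 ± 0.15) were lower. Without the block 13 of the 23 were called lower and 0 higher, and Cdkn1a and Top2a (−0.88 ± 0.10) were among those lost.

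Of 19 genes of glycolysis and the hypoxia response 13 fell and 3 rose (Hk1, Hif1a and Epas1), 8 and 2 past the 2-fold test, and the median was −1.10. Over all genes tested 37.2% fell and 28.5% rose, 9.93% and 9.65% past the 2-fold test. Pkm, pyruvate kinase, read 789, 828 and 1670 CPM in FLK1+ and 198, 224 and 467 CPM in ENG+ HEI libraries (−1.88 ± 0.08, adjusted p = 1.94e-10). Pfkl, phosphofructokinase, fell by 2.35 (SE 0.18) and Hk2, hexokinase 2, by 1.70 (SE 0.14), both without overlap. The endothelial hypoxia-inducible factor Epas1 was on the other side: it read 10.5, 15.3 and 20.5 CPM against 166, 178 and 350 CPM (3.84 ± 0.14, adjusted p = 3.45e-11).

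Immediate early genes, which also respond to handling of cells, were higher: of 12 tested 9 rose, Egr2 fell, 7 rose past the 2-fold test, and the median was 1.87. Here the replicate sets parted. Fos read 7.57, 8.52 and 113 CPM in FLK1+ and 93.9, 110 and 196 CPM in ENG+ HEI libraries, a difference of 1.13 in replicate 1 and 3.78 in replicates 2 and 3. Fosb differed by −0.18 in replicate 1 and by 4.38 in replicates 2 and 3. Without the block 3 of the 12 were called higher, and Fos, Fosb and Egr1 were not among them. Atf3 (3.27 ± 0.15) and Dusp1 (2.24 ± 0.10) did not overlap between the stages. Their part in the other differences was not tested.

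Of 13 homeobox genes of the Hox and Cdx families tested (20 listed) 5 rose (Hoxb4, Hoxb5, Hoxb8, Hoxb9 and Hoxd4) and 4 fell (Cdx2, Cdx4, Hoxb1 and Hoxd1), a share called close to the 65.7% of all genes tested. Cdx4, a posterior mesoderm gene, went from 732 reads to 2 (387-fold, interval 107 to 3200), and Hoxb1 from a median of 11.5 to 0 CPM (−7.94 ± 0.65). Hoxb5 rose by 3.11 ± 0.30 from 4.16 to 33.8 CPM and Hoxb4 by 2.45 ± 0.28 from 3.75 to 20.8 CPM, both without overlap, while their neighbour Hoxb3 did not pass (medians 23.4 and 24.9 CPM, adjusted p = 0.341).

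The stage difference could also be taken within cells of like reporter state. Between ENG+FDG− HEI and FLK1+ LacZ− cells 7513 genes (55.0%) differed, and between ENG+FDG+ HEI and FLK1+ LacZ+ cells 6971 (51.0%). Of these, 6141 were called in the same direction in both (81.7% of the first set and 88.1% of the second) and 2 in opposite directions. The comparisons share no library, but they come from the same fit, with the same replicate block and estimates of spread. Same-numbered fractions of a stage also deviated alike, so the agreement is not independent. The overlap that shares of 55.0% and 51.0% would give by themselves was not computed. For the endothelial surface genes the median was 4.59 in reporter-negative and 3.61 in reporter-positive cells, and for the endothelial transcription factors 2.47 and 1.76. Cdh5 differed by 7.10 ± 0.46 in reporter-negative and 5.0 ± 0.41 in reporter-positive cells, and Pecam1 by 6.32 ± 0.34 and 4.38 ± 0.30. For the streak genes the medians were −6.69 and −6.48. Whether the reporter-negative and reporter-positive stage differences differ from each other was not tested. Lrp2, the gene of the study's title, did not pass in the stage comparison, with medians of 4.69 CPM in FLK1+ and 4.53 CPM in ENG+ HEI cells (−0.42 ± 0.33, adjusted p = 0.277).

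The size of the stage difference in replicate 1 was set against that in replicates 2 and 3. A term for the difference between the sets was called for 36 genes (0.264%), 30 (0.22%) with a higher and 6 (0.0439%) with a lower value in replicate 1, and 2127 genes had an unadjusted p under 0.05. Grb10, an adaptor that restrains insulin signalling, fell by 5.10 in replicate 1 and by 2.22 in replicates 2 and 3, and Sh3bp5 rose by 4.01 and 2.57. Their stage directions were the same in both sets. For Lrig3, Klf5 and Bmper the stage difference was −2.41, −2.65 and −0.39 in replicate 1 and −0.18, −0.81 and −1.53 in replicates 2 and 3, and for Fzd4, a Wnt receptor, it was 2.15 and 0.60. How many genes this term called depended on the fit, as given at the end.

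**Figure D4:**
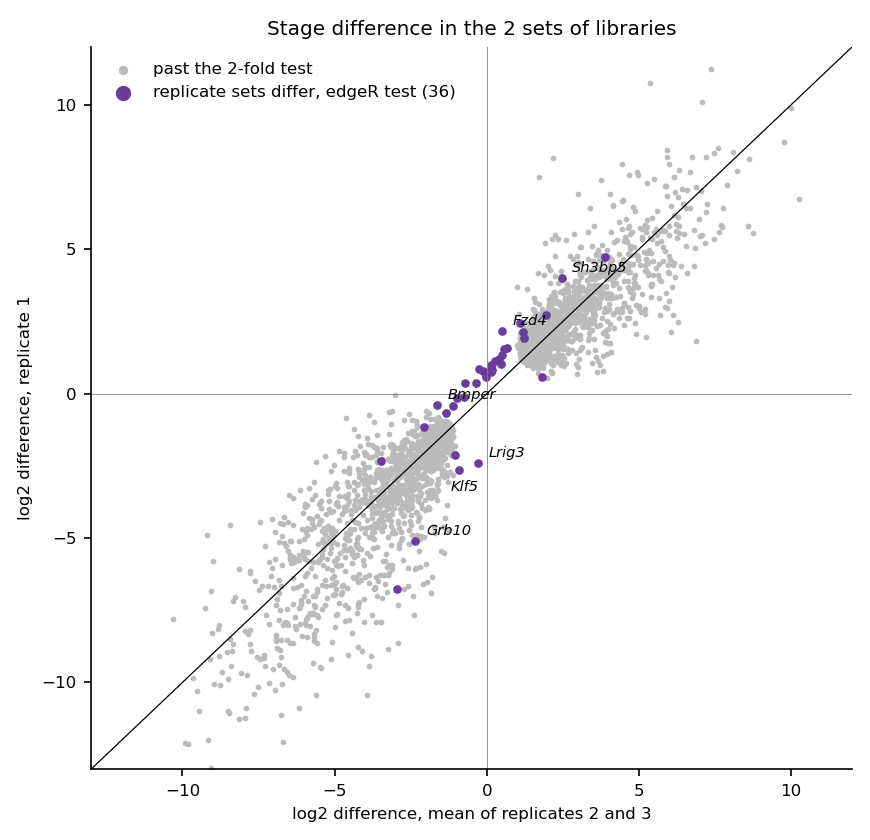
Stage difference of each gene past the 2-fold test in replicate 1 (y axis) against the mean of replicates 2 and 3 (x axis), in log2 units; purple points are the 36 genes for which the term for the difference between the sets was called, whether or not they pass the 2-fold test. The genes were chosen by a test on these same libraries, so their lying along the line of equal difference is no separate result; Grb10, Klf5 and Lrig3 lie below the line and Fzd4, Bmper and Sh3bp5 above it.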

How the data were processed

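Per the labels' protocols, the RNA was amplified (Nugen kit) before library construction. The authors deposited 1 table of unnormalized counts for gene symbols in 15 library columns. They used STAR 2.4.0, HTSeq 0.6.1 and mm10, per the submitters' processing notes; for annotation, strand setting and filters they name nothing (not given in the sources used here), so reads of overlapping, antisense or near-identical genes cannot be told apart. Of 24061 lines, 27 held a calendar date in place of a symbol and were left out (at most 0.349% of a library's counts).

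Counts of all 15 libraries were fitted with edgeR 4.0.16 (R 4.3.3): filterByExpr, TMM scaling, a mean per group, the replicate number as a block, and robust quasi-likelihood tests with Benjamini-Hochberg adjustment over all 13662 genes at a threshold of 0.05. glmTreat gave the 2-fold test. The authors' replicate numbers were taken to pair the samples. Deviations from group means correlated by 0.541 to 0.867 between same-numbered libraries of different groups. All 12 libraries correlated best with a library of their own number, each time the other fraction of the same stage. Replicates 2 and 3 of different groups correlated by 0.528 to 0.636. Across the stages numbers 2 and 3 were thus not told apart: LacZ− replicate 2 correlated by 0.554 with ENG+FDG− replicate 2 and by 0.59 with replicate 3. What the pairing shows across stages is replicate 1 apart from 2 and 3. Replicates 2 and 3 of a group differed beyond sampling noise (mean chi-square per gene 3.86 to 6.25) and were counted as separate. Repeat libraries of the same cells can also differ beyond sampling noise, so this cannot show that they are separate cultures. On simulated counts of 13051 genes the stage test recovered 83% of 100 genes changed 2-fold and 99% of 100 changed 4-fold, with 4.21% of the calls false. The 2-fold test recovered 97 of the 100 genes changed 4-fold. Only these 200 genes were changed, all above a floor on mean count and as many raised as lowered. The replicate effect was the same in every group. In the data 65.7% of genes were called and replicate sets differed by stage, so the simulated rates do not measure the error of those calls.

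The 22 gene lists, the 12 libraries and the tests were chosen with earlier results of these data known. Named genes are the 12 largest rises and falls past the 2-fold test with no overlap and a mean of at least 10 CPM in the higher stage (unnamed gene models left out), the 5 surface markers, up to 8 members of each list, and 3 genes per direction for the replicate sets. A few list members the rule names are counted in their lists and not reported here by name. Other list members named with values, such as Runx1, Pecam1, Bmp4, Hey1 and those with printed promoters, were chosen after their values were seen, as were Lrp2, the motifs and the promoters printed. Bounds use 3 counts for a count of 0 over the 6 libraries of a stage; intervals are exact at 95%. Alternatives were no block, no filter on low counts, RLE size factors, at least 5 CPM in 3 libraries, only the 12 libraries, replicate sets alone, DESeq2 1.42.0 and each library left out.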

Additional observations from a re-analysis of the deposited data

Results flagged for a closer look

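In 34 groups of 6 libraries checked for a value far from the rest, 3 stood apart, and chance flags about 1 in 20 such groups. All 3 were the LacZ+ replicate 1 library of the FLK1+ stage, with Pou5f1 at 37.7 CPM, Eng at 85.2 CPM and Itga2b at 24.1 CPM. The ENG+ HEI levels of Eng and Itga2b were above these values in all 6 libraries, and Pou5f1 was at 0 in all 6. The stage difference in replicate 1 minus that in replicates 2 and 3 (log2, edgeR test of the difference itself) was 1.5 for Fzd4, 1.4 for Bmper, 1.33 for Sh3bp5, −2.53 for Grb10, −2.11 for Lrig3 and −1.91 for Klf5. Whatever separates the replicate sets is not named in the labels, and its part in these values was not tested.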

How the results depend on the processing

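Without the replicate block the stage difference was called for 5007 genes in place of 8977, for 3123 in place of 7513 in reporter-negative cells and for 2667 in place of 6971 in reporter-positive cells; with the pairing left out, the count past the 2-fold test went from 2675 to 1911, and 2576 of the 2675 genes were still called at the simpler test in the same direction. The common coefficient of biological variation was 0.199 with the block, 0.477 without it and 0.069 in replicates 2 and 3 alone. Leaving out each library in turn gave 8625 to 8849 calls for the stage difference, 2559 to 2715 past the 2-fold test, 6373 to 7671 in reporter-negative and 5834 to 7195 in reporter-positive cells. RLE factors, no filter, only the 12 libraries, replicates 2 and 3 alone and DESeq2 kept these 4 counts within 1.5 times; at 5 CPM the 2-fold test called 1920 genes, 1152 higher and 768 lower, against 1319 and 1356, fewer genes being tested.

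The count for replicate 1 against replicates 2 and 3 was not stable: 36 genes (30 with a higher value in replicate 1 and 6 lower) became 16 with RLE factors (11 and 5), 1291 with only the 12 libraries, 338 with DESeq2 and 1168 when the ENG−FDG+ cells had a replicate 1 term of their own, an alternative chosen after seeing the data; leaving out single libraries gave 0 to 537, with 537 when LacZ+ replicate 1 was left out, 28 without LacZ− replicate 1, 9 without LacZ+ replicate 2, 1 without ENG+FDG+ replicate 1 and 0 without any of the other 8. The cause was not tested. Of 173 named genes 19 lost their call without the block. Fosb reversed in replicate 1 alone, at −0.18, and no list median changed sign under the other filters, scalings, fits and sets of libraries named here. In replicate 3 taken singly the BMP and TGF-beta list had a median of −0.02 in place of 0.16 and the Hox and Cdx list −0.10 in place of 0.20. The call of Lrig3 was lost in replicates 2 and 3 alone and without ENG+FDG− or ENG+FDG+ replicate 1. A gene at 0 in a stage has a bound on its fold and no estimate, since a count of 0 allows up to 3 counts. Such bounds without single libraries were computed after seeing the data.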
